A study of Mus musculus with 12 samples.

Results

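The nuclear partners of β-catenin were followed in pre-B leukemia cells with and without stabilization of β-catenin. They comprise the TCF/LEF transcription factors Tcf7, Lef1, Tcf7l1 and Tcf7l2, the TLE corepressors Tle1, Tle3 and Tle4, and the coactivators Bcl9 and Pygo2. Members were chosen by gene symbol from a list of 10 genes, 9 of which were present among the 12151 genes with values. Bcl9l was not analysed here. Expression was measured by sequencing of polyadenylated RNA in 12 libraries, in 4 groups of 3 replicates. All groups were made from bone marrow pre-B cells of mice aged 6 to 12 weeks with the genotype Ctnnb1 Ex3fl/+, in which 1 of the copies of the β-catenin gene has a loxP-flanked exon 3 that carries the phosphorylation sites for degradation. The cells were transformed with BCR-ABL1, the oncogene of a form of acute leukemia of B cell precursors (B-ALL), which replaced their need for IL-7. Cas9 ribonucleoproteins carried either nontargeting guides (sgNTC, called WT) or guides against Ikzf1 and Ikzf3 (called KO), the genes of the B cell transcription factors Ikaros and Aiolos, and lines were grown from single cells. Each background then received a GFP vector for ERT2, the tamoxifen-binding receptor domain alone, or for Cre-ERT2, whose recombinase is activated by 4-hydroxytamoxifen (4-OHT), and GFP+ cells were sorted. The groups are named ERT2 WT and Cre-ERT2 WT in the first background and ERT2 KO and Cre-ERT2 KO in the second, and the protocol gives day 1 after 4-OHT in wording meant for chromatin experiments. Clones are not assigned to libraries, and nothing says that replicates were separate cultures, so p-values measure only the spread between these libraries.

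β-catenin does not bind DNA itself. It acts through TCF/LEF factors, which recognize DNA through an HMG box and, without β-catenin, recruit TLE (Groucho) proteins to repress their targets. Incoming β-catenin displaces TLE and brings in Bcl9, an adaptor that links it to Pygo2, a reader of methylated histone tails. Tcf7 and Lef1 are the TCF/LEF genes best known from lymphocytes, Tcf7 from T cell development and Lef1 from early B and T cells. Tcf7l1 is known mainly as a repressor, and Tcf7l2 is the main TCF factor of the intestinal epithelium.

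Windows at 4 start sites are shown because they hold, or for Tcf7 lack, the DNA cores of the transcription factors that the design perturbs. RefSeq start sites on GRCm38.p6 gave 17 windows of 300 bases for the 9 genes, from 250 bases before to 50 bases after each start. Both strands were searched for CTTTGA, the TCF/LEF core, and TGGGAA, the Ikaros core. Capitals mark matches, on the strand of the gene as printed, so that TCAAAG and TTCCCA are the cores on the opposite strand.
Lef1, internal start, chr3:131156044-131156343 (+): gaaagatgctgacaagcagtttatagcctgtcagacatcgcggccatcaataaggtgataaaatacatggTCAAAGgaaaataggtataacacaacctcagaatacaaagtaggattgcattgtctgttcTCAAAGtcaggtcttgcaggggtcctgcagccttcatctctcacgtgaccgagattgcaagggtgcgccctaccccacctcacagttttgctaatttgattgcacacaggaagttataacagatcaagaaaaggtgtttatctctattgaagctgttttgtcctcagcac
Lef1, first start, chr3:131110047-131110346 (+): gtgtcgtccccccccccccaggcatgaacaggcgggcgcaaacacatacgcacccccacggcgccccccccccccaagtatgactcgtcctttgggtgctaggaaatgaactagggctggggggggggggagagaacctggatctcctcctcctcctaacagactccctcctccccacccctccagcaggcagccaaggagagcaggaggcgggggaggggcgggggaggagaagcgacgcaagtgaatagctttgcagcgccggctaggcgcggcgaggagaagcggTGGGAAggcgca
Tcf7l1, chr6:72788996-72789295 (-): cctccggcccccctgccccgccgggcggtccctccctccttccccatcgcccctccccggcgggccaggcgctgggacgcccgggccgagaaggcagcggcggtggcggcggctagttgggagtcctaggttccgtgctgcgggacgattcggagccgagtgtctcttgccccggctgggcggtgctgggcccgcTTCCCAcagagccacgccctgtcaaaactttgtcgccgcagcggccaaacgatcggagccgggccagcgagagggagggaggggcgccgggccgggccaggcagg
Tcf7, first start, chr11:52282965-52283264 (-): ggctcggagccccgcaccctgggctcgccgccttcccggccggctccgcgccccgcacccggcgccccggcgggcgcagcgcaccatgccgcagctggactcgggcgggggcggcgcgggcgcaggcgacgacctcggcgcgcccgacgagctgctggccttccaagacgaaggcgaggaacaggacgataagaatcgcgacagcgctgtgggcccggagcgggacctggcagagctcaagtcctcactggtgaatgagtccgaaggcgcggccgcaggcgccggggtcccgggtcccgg
The TCF/LEF core was found in 1 of the 17 windows, the internal Lef1 start, where the matches lay 180 and 120 bases upstream. That start falls in intron 3 of the 12-exon GENCODE transcript of Lef1. Of 32851 windows of the same length, 16.0% held this core. The Ikaros core was found in 4 windows of 2 genes, against 25.6% of all windows. At Lef1 it lay 38 bases downstream of the first start, a position shared with an overlapping window, and 43 bases downstream of a start in intron 1. At Tcf7l1 it lay 55 bases upstream. No match was found for Tcf7, Tcf7l2, the TLE genes, Bcl9 or Pygo2, which says only that these letters are not in these windows. Sequence outside the windows, such as that around any start not listed, was not searched.

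Values are the authors' normalized log2 values, and differences are differences of log2 values. Library medians lay between 9.06 and 9.11. Read counts are not given, so the depth of each library is unknown and precision rests on the replicates. The transformation is not stated, and the median spread between replicates was smaller for weakly expressed genes (SD 0.025 at levels of 4 to 6) than for genes at levels of 8.5 to 10 (SD 0.046), although counting noise is larger at low levels. It was 0.037 at levels of 6 to 7, where the mean of Tle1 lies, and 0.045 at 7 to 8.5, where Tcf7 and Tcf7l1 lie. Differences of the weakly expressed Tle1 may therefore be understated. For Tcf7 and Tcf7l1 the spread at their level gives little sign of this, and it was not tested. The pre-B cell markers were all present (11 of 11 analysed), with a summed unlogged level of 116677 to 117639 in ERT2 WT, 112750 to 115061 in Cre-ERT2 WT, 90144 to 90302 in ERT2 KO and 84319 to 85539 in Cre-ERT2 KO libraries. The sum was thus lower in Cre-ERT2 than in ERT2 libraries of either background. It was also lower in KO than in WT, in each case without overlap. However, Rag1 and Rag2 were higher in KO by 0.32 and 0.38 in ERT2 libraries (limma adjusted p = 1.93e-05 and 5.21e-06). Between Cre-ERT2 and ERT2 libraries, Ebf1 was higher by 0.11 in WT and Cd79a by 0.089 in KO (limma adjusted p = 0.0177 and 0.0181). Pax5 went with the sum, with differences of -0.22 in WT and -0.30 in KO (limma adjusted p = 0.00115 and 0.000102). Ikzf3 was lower in the libraries labelled KO, at 10.98 ± 0.014 against 11.63 ± 0.049 in ERT2 libraries (SD, n = 3), whereas Ikzf1 was higher, at 14.75 ± 0.0067 against 13.74 ± 0.012. Gene-level RNA does not show whether the edits removed the protein. The study reports a western blot check of Ikaros factor loss in single-cell clones, which are not assigned to these libraries. KO below means the libraries labelled KO. Excision of exon 3 cannot be read from gene-level values, and Ctnnb1 itself lay between 12.43 and 12.78 in all libraries. Its level was higher in KO by 0.17 in ERT2 and 0.24 in Cre-ERT2 libraries (limma adjusted p = 6.7e-05 and 3.38e-06). Between Cre-ERT2 and ERT2 libraries Ctnnb1 differed by 0.13 in KO (limma adjusted p = 0.00407) and 0.065 in WT (limma adjusted p = 0.128). The difference of these effects did not pass (0.068, limma adjusted p = 0.367). The part of Ctnnb1 in the results below was not tested. In bulk RNA, fewer cells expressing a gene and less RNA per cell cannot be told apart.

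The order of the 9 genes was compared per kilobase of annotated exon, on the log2 scale, because long transcripts collect more reads. In ERT2 WT libraries the order was Lef1 (9.05), Pygo2 (8.42), Tle4 (8.03), Tle3 (7.87), Bcl9 (6.79), Tcf7l2 (6.02), Tcf7 (5.67), Tcf7l1 (5.47) and Tle1 (3.68). No neighbors in that order overlapped between their 3 libraries. By this measure Lef1 was the highest TCF/LEF gene in these cells, and Tle3 and Tle4 were the highest TLE genes. In ERT2 KO libraries the levels of Tle4 and Tle3 overlapped, as did those of Tcf7l2 (6.04) and Tcf7 (6.01). In Cre-ERT2 KO libraries Tcf7 (6.85) moved past Tcf7l2 (6.09) without overlap, and Tle3 (8.10) lay above Tle4 (8.07) with overlap. Of the summed unlogged level per kilobase of the 4 TCF/LEF genes, Lef1 made up 76.8% in ERT2 WT, 78.0% in Cre-ERT2 WT, 74.0% in ERT2 KO and 71.5% in Cre-ERT2 KO libraries. Tcf7 made up 7.38%, 7.82%, 9.16% and 14.2% in the same groups. The lowest Tcf7 share in a Cre-ERT2 KO library (13.8%) was above the highest in an ERT2 KO library (9.28%). These shares assume that the values unlog to a linear scale. The order and the shares also rest on the union of exons of all annotated transcripts. It was 8775 bases over 22 transcripts for Tcf7l2 and 2625 bases over 2 for Tcf7. Which transcripts the cells express was not tested, so the order of Tcf7 and Tcf7l2 is uncertain. The difference of a single gene between groups does not use this length.

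**Figure D1:**
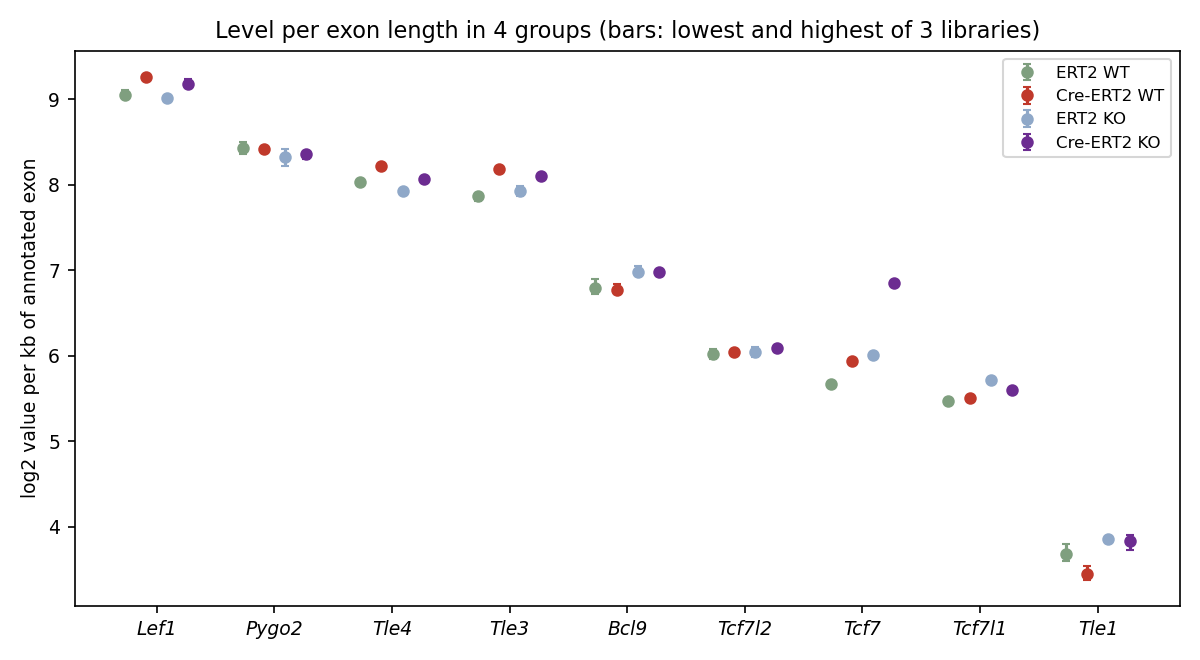
Level of each gene on the log2 scale per kilobase of annotated exon (y axis), with genes on the x axis ordered by their level in ERT2 WT libraries. Points are means of 3 libraries and bars run from the lowest to the highest library. Lef1 is highest and Tle1 lowest in every group, and Tcf7 passes Tcf7l2 in Cre-ERT2 KO libraries.

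The first comparison set Cre-ERT2 against ERT2 libraries in WT cells, a difference called the effect of β-catenin stabilization in what follows. Active Cre is present only in Cre-ERT2 libraries. In either background its own effects cannot be told apart from those of stabilized β-catenin. Tcf7, Lef1, Tle3 and Tle4 were higher in Cre-ERT2 than in ERT2 libraries and Tle1 was lower, so that 5 of 9 genes passed the test (limma, Benjamini-Hochberg adjusted p under 0.05 over 12151 genes). Across all genes, 11.9% passed, 5.93% as higher and 5.95% as lower. The values of 6 genes did not overlap between the groups, against 31.1% of all genes. The median absolute difference was 0.18 over the 9 genes and 0.036 over all genes. Tcf7 and Tle3 are among the genes that the study lists as raised by β-catenin in this cell model, so their direction is not independent evidence.

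Among the TCF/LEF genes, Tcf7 was at 7.05, 7.05 and 7.10 in ERT2 WT libraries and at 7.31, 7.35 and 7.33 in Cre-ERT2 WT libraries. All Cre-ERT2 libraries were above all ERT2 libraries, and the difference was 0.26 (SE 0.027, limma adjusted p = 3.77e-05). Lef1 rose from 12.15, 12.17 and 12.24 to 12.41, 12.38 and 12.38, again without overlap, by 0.20 (SE 0.029, limma adjusted p = 0.000526). The other 2 TCF/LEF genes did not pass. Tcf7l1, the repressor, was at 7.44 ± 0.033 and 7.48 ± 0.0013 (SD, n = 3), a difference of 0.037 with a 95% confidence interval from -0.022 to 0.096. Its values did not overlap, with a gap smaller than the replicate spread. For Tcf7l2 the difference was 0.020 (95% confidence interval -0.062 to 0.10).

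Among the TLE corepressors, Tle3 rose most, from 11.44, 11.35 and 11.43 to 11.72, 11.71 and 11.74. The groups were well apart, by 0.32 (SE 0.033, limma adjusted p = 4.29e-05), which placed Tle3 at rank 147 of 12151 genes by absolute difference. Tle4 went from 10.57, 10.54 and 10.53 to 10.71, 10.76 and 10.72, a difference of 0.18 (SE 0.023, limma adjusted p = 0.000213), and its groups did not overlap. Tle1, the least expressed TLE gene, moved the other way. It was at 6.76, 6.72 and 6.91 in ERT2 WT and at 6.49, 6.67 and 6.56 in Cre-ERT2 WT libraries. The difference of -0.23 (SE 0.058, limma adjusted p = 0.024) exceeded a wide replicate spread, but the call was lost without ERT2 WT replicate 3 (limma adjusted p = 0.0864), without Cre-ERT2 WT replicate 1 (limma adjusted p = 0.0964), without Cre-ERT2 WT replicate 3 (limma adjusted p = 0.0757) or with only the 6 WT libraries in the fit (limma adjusted p = 0.0755).

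The coactivators stayed within their replicate spread. Bcl9, the adaptor, was at 9.86 ± 0.094 in ERT2 WT and 9.85 ± 0.065 in Cre-ERT2 WT libraries (SD, n = 3), a difference of -0.018 (95% confidence interval -0.12 to 0.087). Pygo2 was at 10.28 ± 0.067 and 10.28 ± 0.034 (SD, n = 3), a difference of -0.0083 (95% confidence interval -0.11 to 0.098).

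**Figure D2:**
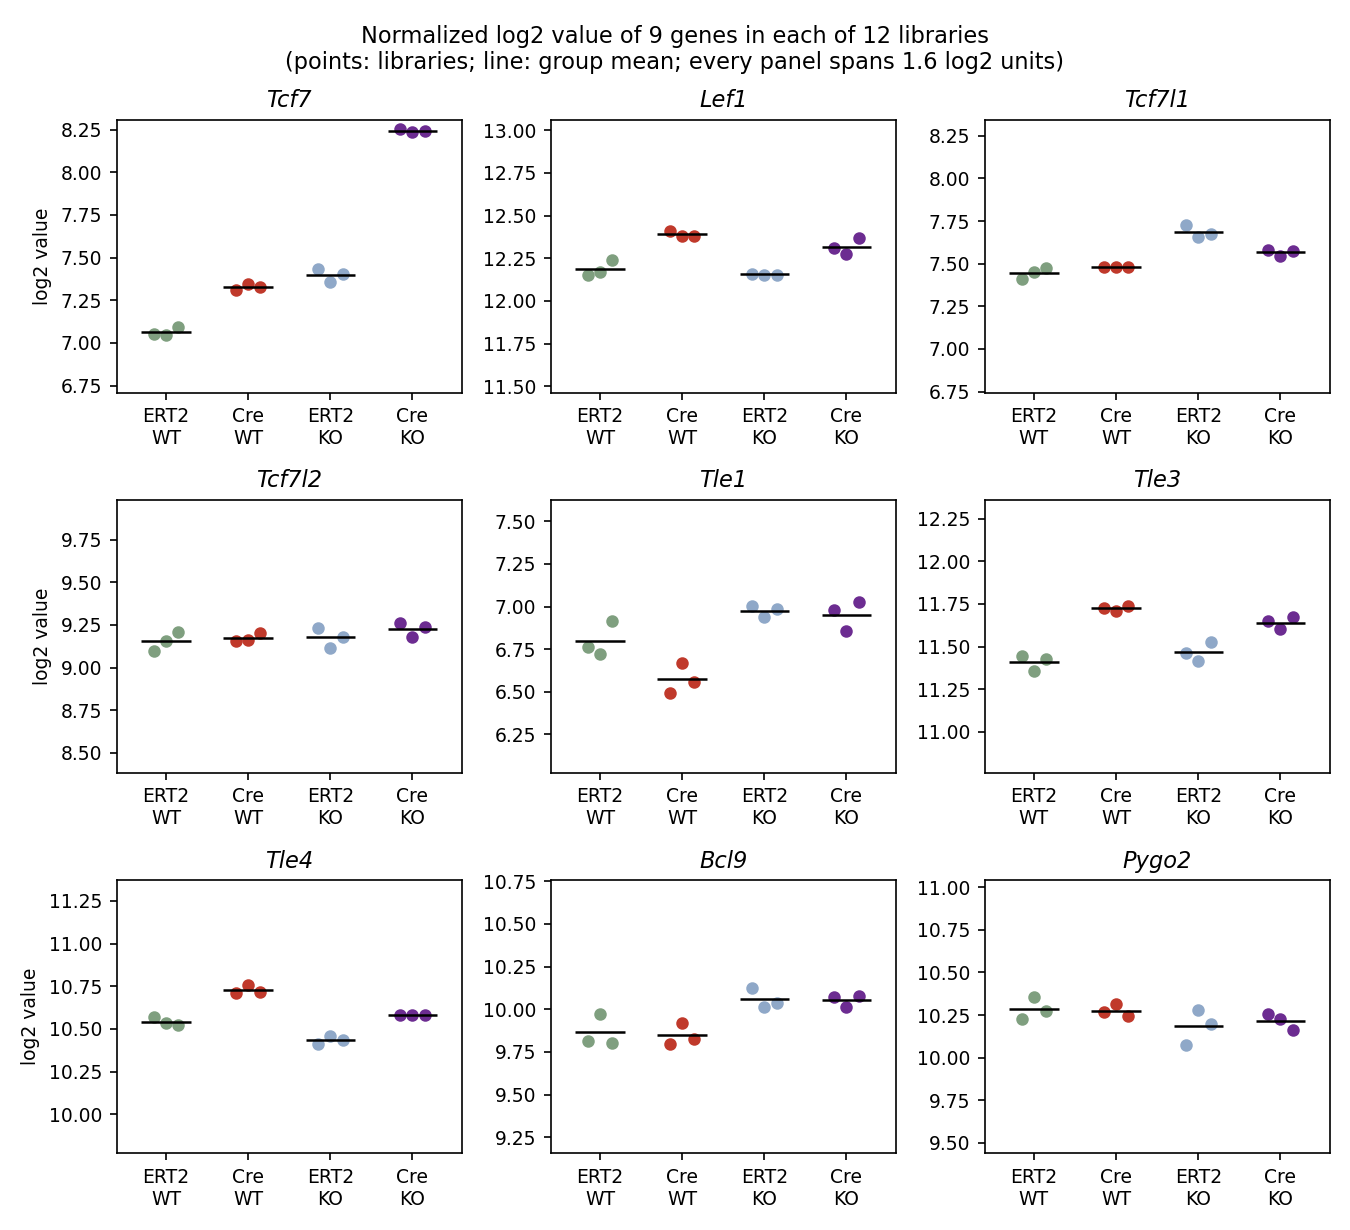
Normalized log2 value (y axis) of each of the 9 genes in the 12 libraries, by group (x axis, Cre standing for Cre-ERT2). Points are libraries and lines are group means, and each panel spans the same range of log2 units. The 3 Cre-ERT2 KO libraries have the highest Tcf7 values, at 8.23 to 8.25, and Lef1, Tle3 and Tle4 lie higher in Cre-ERT2 than in ERT2 libraries of either background.

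The same comparison was made in KO cells. Tcf7, Lef1, Tle3 and Tle4 again rose and Tcf7l1 fell, so that 5 of 9 genes passed the limma test, against 12.6% of all genes (7.27% higher and 5.33% lower). The values of 5 genes did not overlap, against 28.3% of all genes. The median absolute difference was 0.12 over the 9 genes and 0.037 over all genes.

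Tcf7 changed by far more than the other partners. It was at 7.43, 7.36 and 7.40 in ERT2 KO and at 8.25, 8.23 and 8.24 in Cre-ERT2 KO libraries. The gap between groups was many times the spread within either of them. The difference was 0.85 (SE 0.027, limma adjusted p = 4.52e-10), which placed Tcf7 at rank 20 of 12151 genes by absolute difference. On unlogged values its mean went from 169 to 303 in KO cells, a gain of 79.7%, and from 134 to 161 in WT cells, a gain of 20.1%. Lef1 rose from 12.16, 12.15 and 12.15 to 12.31, 12.27 and 12.37, without overlap, by 0.16 (SE 0.029, limma adjusted p = 0.00241). Tcf7l1 went down from 7.72, 7.66 and 7.68 to 7.58, 7.55 and 7.57, by -0.12 (SE 0.027, limma adjusted p = 0.0123). That call was lost without ERT2 KO replicate 1 (limma adjusted p = 0.0524) and with only the 6 KO libraries in the fit (limma adjusted p = 0.0527). Tcf7l2, the intestinal factor, showed a difference of 0.049 (95% confidence interval -0.034 to 0.13).

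Tle3 rose from 11.46, 11.41 and 11.53 to 11.65, 11.60 and 11.67, by 0.17 (SE 0.033, limma adjusted p = 0.00363). Tle4 rose from 10.41, 10.46 and 10.43 to 10.58 in each Cre-ERT2 KO library, by 0.15 (SE 0.023, limma adjusted p = 0.00109). Neither corepressor overlapped between the groups. Tle1 lay at 6.97 ± 0.034 and 6.95 ± 0.089 (SD, n = 3), a difference of -0.022 (95% confidence interval -0.15 to 0.10). Bcl9 and Pygo2 were again within their spread, with differences of -0.0040 (95% confidence interval -0.11 to 0.10) and 0.033 (95% confidence interval -0.073 to 0.14).

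**Figure D3:**
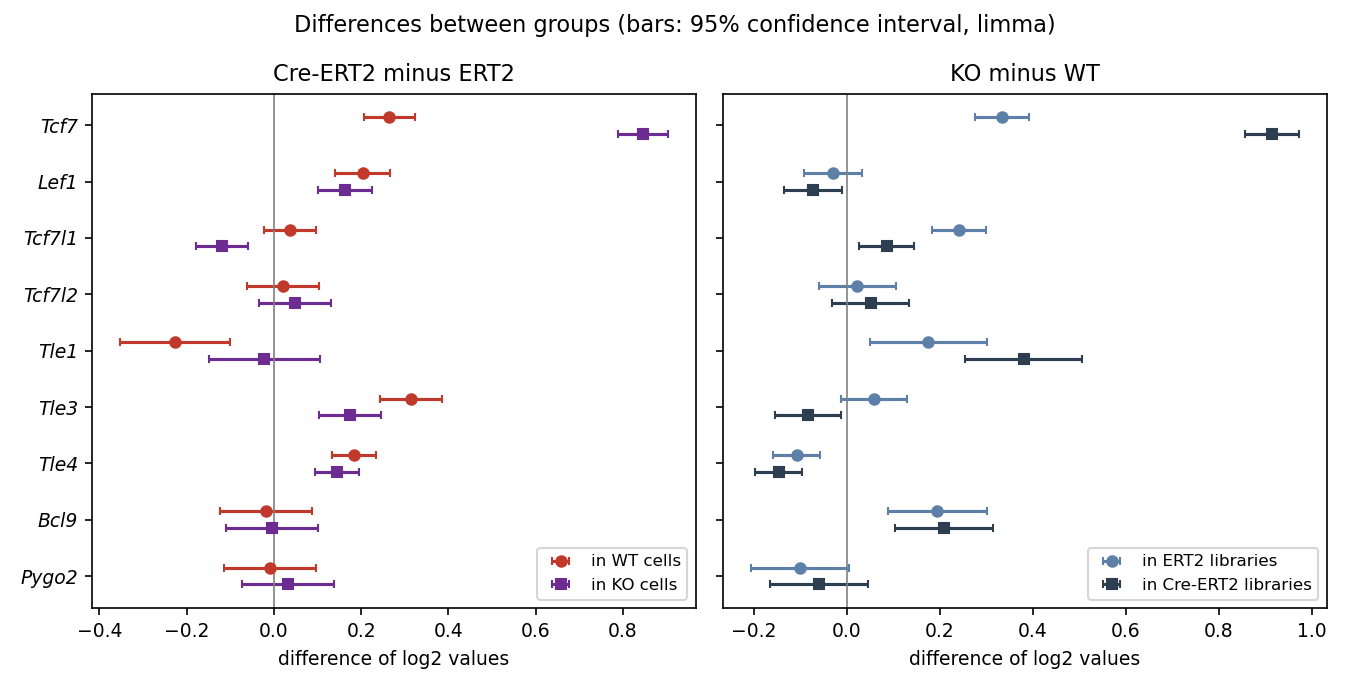
Difference of log2 values (x axis) for each gene (y axis), Cre-ERT2 minus ERT2 on the left and KO minus WT on the right, with 95% confidence intervals from limma as bars. The Tcf7 change upon β-catenin stabilization is 0.26 in WT and 0.85 in KO cells, and the intervals of Tcf7l2 and Pygo2 cover 0 in all 4 comparisons.

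Whether the response to β-catenin differed between the backgrounds was tested as the difference of the 2 effects. It passed for 2 of 9 genes, against 4.53% of all genes (2.71% with a higher and 1.82% with a lower effect in KO cells). The gain of Tcf7 in KO cells exceeded that in WT cells by 0.58 (SE 0.038, limma adjusted p = 2.04e-06), rank 33 of 12151 genes by absolute difference. On unlogged values its gain was larger by 108 units (SE 3.29, limma adjusted p = 3.3e-06). For Tcf7l1 the difference of effects was -0.16 (SE 0.038, limma adjusted p = 0.0393). Leaving out single libraries ended the Tcf7l1 call in 10 of 12 cases, and the Tcf7 call in none. Tle3 and Tle1 showed differences of effects of -0.14 (95% confidence interval -0.24 to -0.041, limma adjusted p = 0.121) and 0.20 (95% confidence interval 0.026 to 0.38, limma adjusted p = 0.217), which did not pass over all genes. For Lef1 the difference was -0.041 (95% confidence interval -0.13 to 0.047) and for Tle4 -0.039 (95% confidence interval -0.11 to 0.032). Tcf7l2, Bcl9 and Pygo2 had differences of 0.028, 0.014 and 0.041, each with an interval that covered 0. The median absolute difference of effects was 0.041 over the 9 genes and 0.042 over all genes.

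T cell genes moved beside Tcf7, which is itself a T lineage factor. Of 15 T cell markers 3 were analysed, and the Cd3, Cd4, Cd8 and T cell receptor α genes were not analysed here. The summed unlogged level of the 3 markers ran from 701 to 731 in ERT2 WT, 1173 to 1225 in Cre-ERT2 WT, 399 to 404 in ERT2 KO and 593 to 602 in Cre-ERT2 KO libraries. Cd5, a surface receptor of T cells and some B cells, rose by 0.51 in WT and 1.02 in KO cells, and the effects differed by 0.51 (limma adjusted p = 0.000196). Lck and Zap70, kinases of T cell receptor signaling, rose by 0.81 and 0.65 in WT but by 0.33 and 0.41 in KO cells, and the differences of effects of -0.48 (limma adjusted p = 0.000102) and -0.24 (limma adjusted p = 0.013) had the opposite sign to that of Tcf7. Lyz2, the lysozyme gene of myeloid cells, moved with Tcf7 in KO cells, where it rose by 0.21 (limma adjusted p = 0.0015), against -0.032 in WT cells (limma adjusted p = 0.644), a difference of effects of 0.24 (limma adjusted p = 0.0145). The sum of the 2 myeloid markers analysed ran from 349.6 to 370.1 in ERT2 KO and from 401.3 to 432.8 in Cre-ERT2 KO libraries. The part of these genes in the Tcf7 result was not tested.

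The genes most like Tcf7 over the 12 libraries, among 930 genes whose group means spanned at least 0.5 times the range of Tcf7, were Cd28 (Pearson r 0.991), Gpr155 (0.990), Lrrn4 (0.986), Rab31 (0.984) and Phlda1 (0.981). Cd28, the T cell costimulatory receptor, had group means of 6.50 (ERT2) and 6.94 (Cre-ERT2) in WT and of 6.90 (ERT2) and 8.85 (Cre-ERT2) in KO libraries. For Lef1 the closest of 7500 genes were Ube2a (0.966), Prep (0.953), Dgka (0.951), Gpr107 (0.949) and Hibadh (0.942). Dgka, a diacylglycerol kinase, had a far wider range than Lef1, with group means in the same order of 11.77, 13.08, 11.56 and 12.84. For Tle3 the closest of 6073 genes were Enpep (0.967), Tmem255a (0.963), Hibadh (0.960), Spata13 (0.950) and Cd69 (0.948). Enpep, a surface aminopeptidase of early B cells, had group means of 13.07, 13.86, 13.30 and 13.63. These correlations describe libraries that share 4 groups and 1 normalization.

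The effect of the KO background was read in the libraries without stabilized β-catenin. Lines came from single cells, and clones are not assigned to libraries. Differences between clones therefore cannot be told apart from the editing, here, in Cre-ERT2 libraries and in the differences of effects above. Tcf7, Tcf7l1, Tle1 and Bcl9 were higher and Tle4 lower in ERT2 KO than in ERT2 WT libraries. The 5 of 9 genes that passed limma stand against 59% of all genes (29.8% higher and 29.3% lower), so the share is near that of the table. The values of 5 genes did not overlap, against 65.5% of all genes. The median absolute difference was 0.11 over the 9 genes and 0.10 over all genes. In KO, Tcf7 exceeded its WT level by 0.33 (SE 0.027, limma adjusted p = 2.75e-07), and every KO library was above every WT library. The Tcf7l1 difference was 0.24 (SE 0.027, limma adjusted p = 6.53e-06) and that of Bcl9 0.19 (SE 0.048, limma adjusted p = 0.00393). Bcl9 lay at 9.82, 9.97 and 9.80 in WT and at 10.13, 10.02 and 10.04 in KO libraries, a narrow gap without overlap. Tle4, the corepressor, was lower by -0.11 (SE 0.023, limma adjusted p = 0.00135). Tle1 was higher by 0.18 (SE 0.058, limma adjusted p = 0.0204), a call that was lost on centering the libraries at their medians (limma adjusted p = 0.0548), after quantile normalization (limma adjusted p = 0.271) and without any 1 of 4 single libraries (ERT2 KO replicates 1 and 3 and ERT2 WT replicates 1 and 2, limma adjusted p from 0.0538 to 0.0857). The remaining differences were -0.031 for Lef1 (95% confidence interval -0.093 to 0.031), 0.023 for Tcf7l2 (-0.060 to 0.11), 0.058 for Tle3 (-0.013 to 0.13) and -0.10 for Pygo2 (-0.21 to 0.0049).

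In the Cre-ERT2 libraries 7 of 9 genes passed limma, against 58.9% of all genes (30.4% higher and 28.6% lower). The same number did not overlap, against 63.6% of all genes. The median absolute difference, 0.086, was below the 0.11 of all genes. Tcf7 was higher in KO by 0.92 (SE 0.027, limma adjusted p = 1.39e-11) and Tle1 by 0.38 (SE 0.058, limma adjusted p = 0.000101). Both genes had all 3 KO libraries above all 3 WT libraries. Bcl9 was higher by 0.21 (SE 0.048, limma adjusted p = 0.00245), close to its difference in ERT2 libraries. Tcf7l1 differed by 0.086 (SE 0.027, limma adjusted p = 0.0158), and its call was lost on centering (0.052, limma adjusted p = 0.121), after quantile normalization (0.0050, limma adjusted p = 0.887) and without Cre-ERT2 KO replicate 1 (limma adjusted p at the threshold). Tle4 was lower by -0.15 (SE 0.023, limma adjusted p = 0.000122). Tle3 and Lef1 were lower by -0.083 (SE 0.033, limma adjusted p = 0.0435) and -0.072 (SE 0.029, limma adjusted p = 0.0462). Both calls were lost after quantile normalization (limma adjusted p = 0.198 and 0.246) and without most of the single libraries (for each gene, 5 of 6), and that of Lef1 also with only the 6 Cre-ERT2 libraries in the fit (limma adjusted p = 0.0711). Tcf7l2 and Pygo2 differed by 0.051 (95% confidence interval -0.032 to 0.13) and -0.060 (95% confidence interval -0.17 to 0.046).

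Markers of other cells moved with the KO background. Of the 10 myeloid markers 2 were analysed, with a summed unlogged level of 189 to 196 in WT and 349.6 to 432.8 in KO libraries. Lyz2 was higher in KO by 0.99 in ERT2 and 1.23 in Cre-ERT2 libraries (limma adjusted p = 9.36e-11 and 1.11e-11), whereas Itgam, an integrin gene of myeloid cells, was lower by -0.15 and -0.18 (limma adjusted p = 1.79e-05 and 2.63e-06). Itgam was weakly expressed, with group means from 4.51 to 4.70. Of 5 natural killer cell markers 2 were analysed, with a sum of 102.0 to 102.5 in WT and 359.5 to 415.4 in KO libraries. Nkg7, a granule protein gene, accounted for nearly all of it. Its WT replicates hardly differed (SD 0.0027 in ERT2 and 0.0036 in Cre-ERT2 libraries), so the size of its KO difference is uncertain. The summed level of the T cell markers was lower in KO, with Lck lower by -1.45 in ERT2 libraries (limma adjusted p = 2.58e-12). Erythroid markers were not analysed here. The part of these genes in the KO differences of Tcf7, Tcf7l1, Tle1 and Bcl9 was not tested.

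Other nuclear cofactors were read from a list of 38 genes, 33 of which were analysed. Upon β-catenin stabilization 9 passed limma in WT cells (6 higher and 3 lower) and 10 in KO cells (7 higher and 3 lower), against 11.9% and 12.6% of all genes, with list medians of 0.025 and 0.020. Sox4, an HMG box factor that can act with TCF/LEF, rose by 0.35 in WT and 0.38 in KO cells (limma adjusted p = 2.48e-05 and 8.8e-06). Smarca4, the ATPase of a chromatin remodeling complex, rose by 0.24 and 0.20 (limma adjusted p = 9.85e-06 and 4.05e-05). Ctnnbip1, an inhibitor that keeps β-catenin from TCF, rose by 0.17 and 0.16 (limma adjusted p = 0.0327 and 0.0351). Cdk8, the Mediator kinase, fell by 0.14 and 0.10 (limma adjusted p = 0.00128 and 0.0118), and Ssbp4, an adaptor of the Ldb1 complex, fell by 0.15 and 0.14 (limma adjusted p = 0.00167 and 0.00254). The acetyltransferase gene Crebbp rose by 0.28 in WT cells (limma adjusted p = 0.00966) and showed 0.069 in KO cells (limma adjusted p = 0.54), but the difference of effects did not pass (-0.21, limma adjusted p = 0.224). Aes, a short TLE protein without the repression domain, was listed at 3.75, 3.75, 3.79 and 3.93 in the 4 groups, where values of replicates hardly differed.

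Between the backgrounds, 19 of the 33 cofactors passed in ERT2 libraries (6 higher and 13 lower in KO) and 20 in Cre-ERT2 libraries (7 higher and 13 lower). The shares are near the 59% and 58.9% of all genes that passed. Smarca4 and Sox4 were lower in KO by -0.45 and -0.48 in ERT2 libraries (limma adjusted p = 1.16e-09 and 7.74e-08). The corepressor Ctbp1 was lower by -0.32 (limma adjusted p = 2.41e-05) while Ctbp2 was higher by 0.34 (limma adjusted p = 7.55e-08). Ctbp2 was weakly expressed, at 5.34 in ERT2 WT (SD 0.00027) and 5.68 in ERT2 KO libraries, against 11.62 and 11.30 for Ctbp1.

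Target and feedback genes of TCF/LEF were read from a list of 17, of which 10 were analysed. In WT cells 7 passed (6 higher and 1 lower, Fzd7, a Wnt receptor, at -0.12) and in KO cells 7 (all higher), against 11.9% and 12.6% of all genes, with list medians of 0.19 and 0.14. The study names Nkd1, Nkd2, Kremen1 and Axin2 as raised in this cell model, so their direction is not independent evidence. Nkd1, an inhibitor of Wnt signaling, rose by 0.53 in WT and 1.10 in KO cells, and the effects differed by 0.57 (SE 0.038, limma adjusted p = 2.74e-06), as for Tcf7. Kremen1, a receptor for Wnt inhibitors, rose by 0.69 and 0.54. Axin2, a scaffold of the degradation complex, rose by 0.29 and 0.14, and the difference of effects was -0.15 (SE 0.023, limma adjusted p = 0.00284), the opposite sign to that of Tcf7. Axin2 was weakly expressed, with group means from 5.01 to 5.37. Its ERT2 replicates hardly differed (SD 0.0055 in WT and 0.00028 in KO), so the sizes of its differences are uncertain. Between the backgrounds all 10 passed in ERT2 libraries (8 higher and 2 lower in KO) and all 10 in Cre-ERT2 libraries (8 higher and 2 lower), against 59% and 58.9% of all genes, with Axin2 and Sgk1 lower in both.

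**Figure D4:**
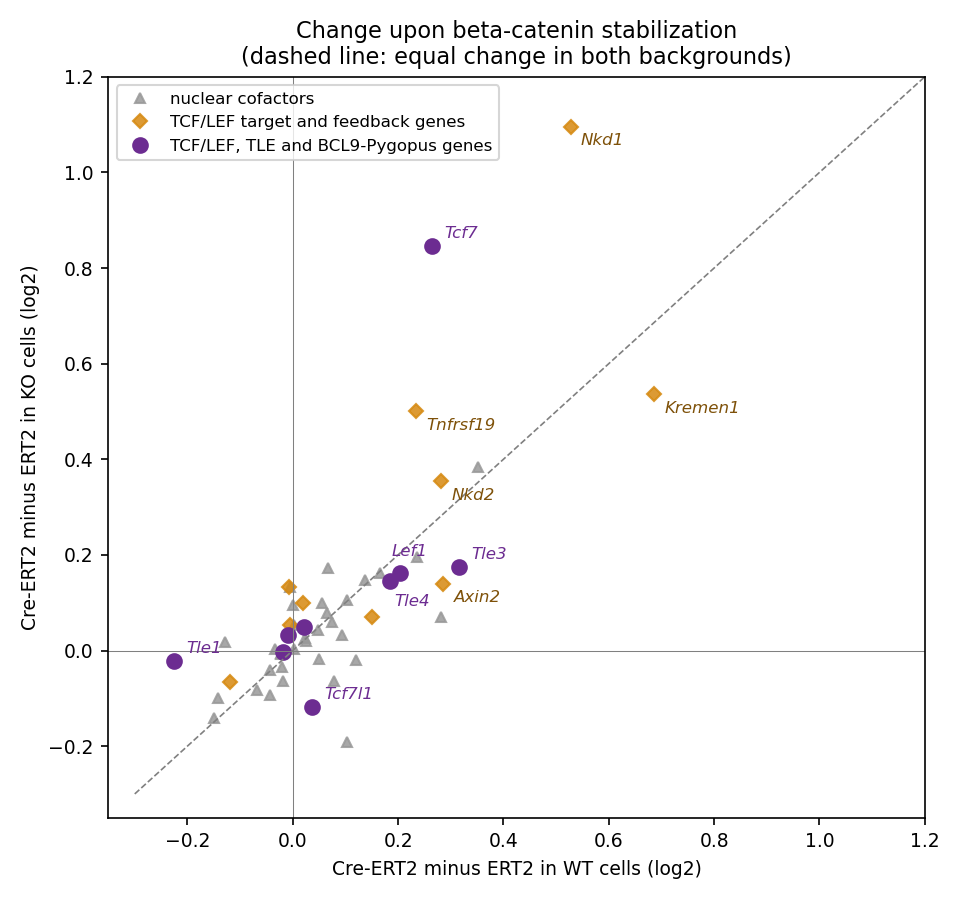
Change upon β-catenin stabilization (Cre-ERT2 minus ERT2, log2) in WT cells on the x axis and in KO cells on the y axis for the 9 nuclear partners, 33 other nuclear cofactors and 10 target and feedback genes. On the dashed line both changes are equal, and Tcf7 and Nkd1 lie farthest above it, with differences of effects of 0.58 and 0.57.

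An exact 2-sided permutation test on single genes, which cannot go below 0.1 with 3 against 3 libraries, reached that smallest p in 23 of 36 tests of the 9 genes, namely those without overlap.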

How the data were processed

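Polyadenylated RNA of 12 libraries was quantified by the authors, per the labels and the study's methods, with Salmon 1.4.0 and STAR 2.7.6 on mm10 (GRCm38) and analyzed with DESeq2 1.30.1. The deposited table holds normalized log2 values made by the authors for 12151 genes, and the transformation and the filter on genes are not given in the sources used here. Groups came from sample titles. In place of a count test, limma 3.58.1 (R 4.3.3) estimated the 4 group means of every gene from all libraries, without covariates and with a mean-dependent prior on the spread. Benjamini-Hochberg adjustment ran over all genes, and an adjusted p below 0.05 made a call. The fit was tested on simulated data. Every member present was named. Genes most like Tcf7, Lef1 and Tle3 were the 5 with the highest Pearson r whose range of group means was at least 0.5 times that of the member. Members, lists, markers and motifs were chosen from general knowledge with earlier results of these data known, and 1 T cell marker is not reported here. Exon lengths and transcripts came from GENCODE on GRCm38, promoters from RefSeq on GRCm38.p6. Alternatives were pseudocounts of 1 and 64 on unlogged values, centering, quantile normalization, removal of the lowest 25% of genes, stricter thresholds, a prior without mean dependence, a robust prior, a fit of the compared libraries alone, a replicate block and leaving out each library.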

Additional observations from a re-analysis of the deposited data

Results flagged for a closer look

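The response to β-catenin stabilization differed between KO and WT cells, by limma's test of the difference of effects adjusted over 12151 genes, for the following nuclear partners, targeted genes, list members and cell type markers. Among the nuclear partners these were Tcf7, with a difference of 0.58 (limma adjusted p = 2.04e-06), and Tcf7l1, with -0.16 (limma adjusted p = 0.0393). Among the targeted genes it was Ikzf1, with -0.10 (limma adjusted p = 0.0422), whose RNA level was higher in KO than in WT libraries. Among other cofactors these were Aes, with 0.14 at a level where values hardly vary, and Usp47, a deubiquitinase, with -0.14. Among target and feedback genes these were Nkd1 with 0.57, Tnfrsf19 with 0.27, Znrf3 with 0.14 and the weakly expressed Axin2 with -0.15. The ERT2 replicates of Znrf3 hardly differed (SD 0.0055 in WT and 0.0066 in KO), so the size of its difference is uncertain. Among cell type markers these were Cd5 with 0.51, Lck with -0.48, Zap70 with -0.24, Lyz2 with 0.24 and Ebf1, a B cell transcription factor gene, with -0.19. Genes named for likeness to a partner were not considered here. Groups of 3 libraries were not tested for single outlying libraries.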

How the results depend on the processing

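No direction of a called difference reversed under any alternative run. Of 729 alternative values of single genes, 687 kept their side of the threshold, 39 lost a call and 3 gained one. With a minimum absolute log2 difference of 0.25 the genes called of 9 fell to 2 (β-catenin effect in WT cells), 1 (in KO cells), 1 (KO against WT, ERT2), 2 (KO against WT, Cre-ERT2) and 1 (difference of effects, Tcf7). Of all 12151 genes, 241, 275, 2614, 2648 and 200 passed at that minimum, in the same order. The 7 called between KO and WT in Cre-ERT2 libraries became 4 after quantile normalization and at an adjusted p under 0.01, and leaving out single libraries gave 4 to 7 (4 without Cre-ERT2 KO replicate 1). Of all 12151 genes, 7397 passed after quantile normalization, 5872 at the stricter threshold and 6690 to 6845 leaving out single libraries. The 2 called for the difference of effects became 1 at an adjusted p under 0.01 and with a replicate block, and 1 to 2 leaving out single libraries, Tcf7 remaining in each. In the same order, 240, 424 and 383 to 595 of all 12151 genes passed. Leaving out single libraries gave 4 to 5 called genes for the β-catenin effect in WT cells and in KO cells and 4 to 6 for KO against WT in ERT2 libraries. Of all 12151 genes, 1026 to 1198, 1050 to 1313 and 6609 to 6721 passed in these comparisons. In the last, Pygo2 gained a call on centering (limma adjusted p = 0.0282) and without ERT2 KO replicate 2 (limma adjusted p = 0.0209), and Tle3 after quantile normalization (limma adjusted p = 0.0118). The cause of these changes was not tested. Same-numbered libraries correlated between -0.091 and 0.31 over 7729 genes, above 0.1 in 2 of 18 pairs, and 6 of 12 libraries were closest to their own number, so the numbers were not taken as pairs. Unknown depth and an unstated transformation limit the sizes of differences of Tcf7, Tcf7l1 and Tle1.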
